A study of Mus musculus with 8 samples.

Results

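The livers of male mice that had received TAA were compared between 1 week and 2 weeks of observation, on 4 of the series' 8 arrays. TAA is the usual abbreviation of thioacetamide, a liver toxin, and the labels give the abbreviation alone. Fibrosis had been induced over 5 weeks, and NC (a negative control nucleotide) or miR-29a was then injected every 3 days during the observation period. The 4 samples were 1 liver RNA sample of each kind, namely 1 week with NC, 1 week with miR-29a, 2 weeks with NC and 2 weeks with miR-29a. The other 4 arrays have the same layout after CCl4 (carbon tetrachloride, another liver toxin) and enter only the test of a difference between the agents. No array of an untreated liver, or of a liver at the end of the induction, was analysed here, so both weeks lie after injury. The labels do not give a strain or the age of the mice, do not state how many animals went into a sample, and name no hour of collection. They also do not say in so many words that TAA was stopped at the end of the induction.

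Thioacetamide is turned into its toxic form by enzymes of hepatocytes around the central vein, and repeated dosing kills those cells and leads to scars made by activated stellate cells. When dosing ends, a liver is known to regain its metabolic enzymes, to clear inflammatory cells and to take down scar matrix slowly. miR-29a is a microRNA best known for repressing collagen messenger RNAs through its seed, the bases that pair with a target. Its mature sequence is shown because it is the agent injected in 2 of the 4 samples, and the capitals mark the seed (bases 2 to 8, RefSeq, GRCm38.p6).
miR-29a-3p: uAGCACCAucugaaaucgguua

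Each gene has a matched difference for each nucleotide, which is the 2-week array minus the 1-week array in log2 units. These are called the NC pair and the miR-29a pair below, and a pair is 1 array against 1 array with no replicate check of its own. A level is the log2 signal relative to the array's 75th percentile. With 18691 features tested, limma on the 4 TAA arrays with the nucleotide as a covariate called 0 genes higher and 0 genes lower at an adjusted p under 0.05, a background of 0% in either direction. The smallest adjusted p was 0.168, and 2845 features had an unadjusted p under 0.05, 1627 of them higher and 1218 lower at 2 weeks. The fit leaves 1 residual degree of freedom, and a two-sided exact permutation test of 2 arrays against 2 could not go below 0.333. That is also the share of genes whose weeks would not overlap if the week labels carried nothing. Statements below that weeks did not overlap therefore describe the 4 arrays, for genes often picked by size. The share of all features without overlap was not counted. The differences below are therefore measurements of these 4 samples, and none passed that test. The call depended on the scaling: with each array scaled on its median the same fit called 960 higher and 379 lower. These calls included genes whose pairs disagreed. On the 75th percentile scale Camp, a neutrophil gene, differed by −4.51 in the NC pair and 0.34 in the miR-29a pair. Its adjusted p in the median-scaled limma fit was 0.00038. Where all 8 arrays shared 1 estimate of the spread, the TAA contrast of weeks had 59 features higher (0.316%) and 54 lower (0.289%) at an adjusted p under 0.05 in limma. Those counts turned on single arrays, with 22 higher and 53 lower without the 1-week NC array, 421 and 445 without the 1-week miR-29a array, 13 and 14 without the 2-week NC array and 10 and 5 without the 2-week miR-29a array. Of the 59 higher and 54 lower features, 33 and 12 had a signal well above background on all 4 TAA arrays. Over all features 11.1% fell short of that. Features that fell short could pass the filter on dim probes through 1 TAA week. With 1 array per combination, the residual spread of the 4-array fit is the disagreement between the NC and miR-29a pairs. In the 8-array fit it is how far the difference between the nucleotides varies over agents and weeks. The p-values thus measure no spread between like samples. They concern these samples only, since the labels do not say that they came from separate animals.

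A signal well above background was found at 43.9% to 48.2% of spots on the TAA arrays, whose 75th percentiles of signal ranged from 136 to 219. Liver identity was checked with hepatocyte genes. Alb, the gene of serum albumin, had levels of 10.83 and 11.21 at 1 week (NC and miR-29a) and 10.83 on both arrays of 2 weeks. Levels of Apoa1, Ttr, Trf (transferrin) and Serpina1a were between 8.03 and 11.14 on every TAA array. The 2 arrays of 2 weeks were the most alike (Pearson r 0.986 across genes, which share a slide and a labelling method and are no replicates). The 1-week NC array had the lowest correlations, between 0.962 and 0.968. All arrays lay on 1 slide and were scanned once, with the weeks at different positions of the slide, so week and position cannot be told apart.

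Over all features 35.5% were above 0 in both pairs and 29.6% were below 0 in both. At least 2-fold higher in both pairs were 309 features (1.65%), and at least 2-fold lower in both were 243 (1.3%). With each array scaled on its median instead, which adds 0.28 to every NC difference and 0.10 to every miR-29a difference, the same counts were 524 and 164. With normexp background correction they were 143 and 59. The median of all genes was 0.11 in the NC pair and −0.02 in the miR-29a pair, and list medians below are to be read against those values. List counts are to be read against the shares of all features given above. The lists share members, with 139 of the 1232 listed genes on more than 1 list, so their counts are not independent. On the 1-week NC array alone, 462 features (2.47%) lay at least 2-fold above and 195 (1.04%) at least 2-fold below each of the other 3 arrays, which themselves lay within 2-fold of each other. For the 1-week miR-29a array these counts were 121 and 96, for the 2-week NC array 41 and 63, and for the 2-week miR-29a array 36 and 19. A gene of the 1-week NC array alone gives a large NC difference and a small one in the miR-29a pair, so the 2 kinds are described apart.

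**Figure D1:**
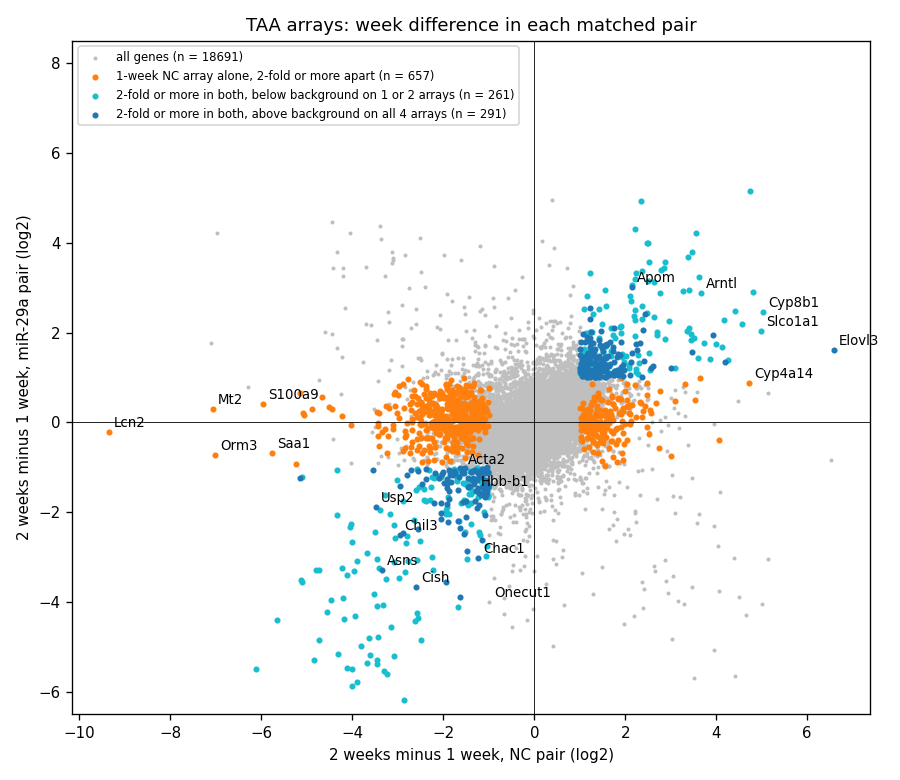
Each point is a gene, with its log2 difference between 2 weeks and 1 week in the NC pair on the x axis and in the miR-29a pair on the y axis. Blue and cyan points passed 2-fold in both pairs, orange points set the 1-week NC array apart, and Lcn2 lies at −9.36 in the NC pair but −0.21 in the miR-29a pair.

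Many of the largest on or off signals came from one region of the array. Of the features 2-fold lower in both pairs, 138 were below background on 1 or 2 of the 4 arrays, and 103 of those (74.6%) had their spot in rows 1 to 128 of the array's 384 rows. Among all features with 1 spot the share was 34.5%. For features 2-fold higher in both and below background somewhere the share was 56.6%, whereas it was 38.1% and 41.7% for those higher or lower and well above background on all 4 arrays. The genes named first by size belong mostly to the first kind. Among the 15 largest lower differences, Cysltr2, a leukotriene receptor, was at 0.40 and −1.12 at 1 week and below background at 2 weeks (at least 7.74-fold lower), Gabra4, a GABA receptor subunit, was at least 6.98-fold lower, and Mastl, Gm10209, Olfr71, Speer4b, Epb42, Trim61, Catsper1, Smpx, Ccdc40, Dppa3, P3h2 and B3gnt7 were likewise below background on both 2-week arrays, with every spot in rows 4 to 88. Asns was the only one of the 15 that was well above background on all 4 arrays. On the higher side Prm3, Asb11, Olfr507, Spint5, Itm2a, Tinag, Prune1, Zfp12 and Rfx4 were below background on both 1-week arrays, as were Crat and, on 1 of them, Dbpht2, Cyp8b1 and Arntl. Bounds take the lowest signal well above background as the level of the dim week. With spots of rows 1 to 128 left out, 201 features were 2-fold higher and 107 lower in both pairs. What part the place of the spot has in these signals was not tested. The genes described below were therefore taken mainly from the 186 higher and 105 lower features with a signal well above background on each of the 4 arrays, a choice made after these values were seen.

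**Figure D2:**
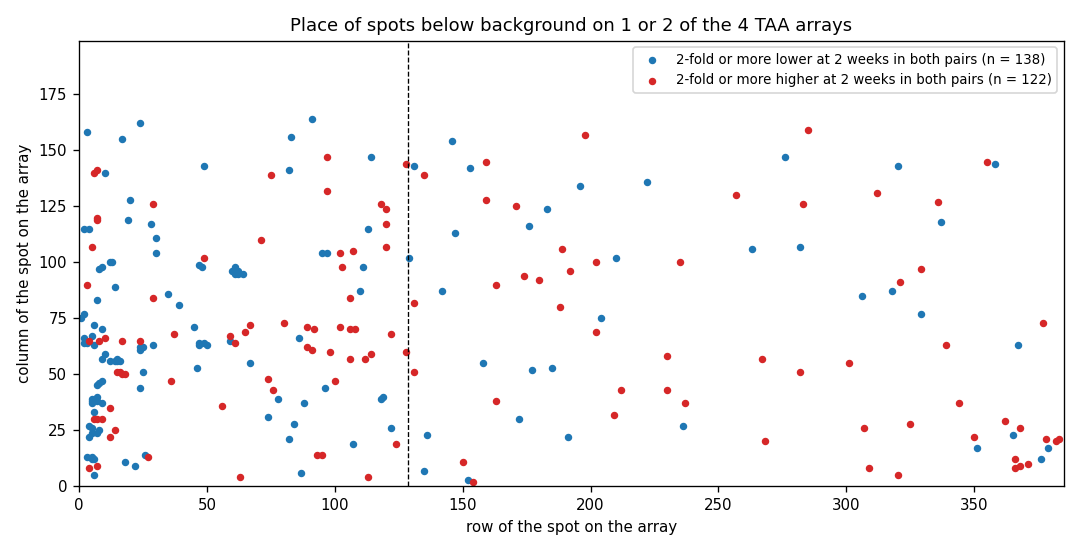
Each point is the spot of a feature 2-fold higher (red) or lower (blue) in both pairs that was below background on 1 or 2 of the 4 TAA arrays, placed by its row (x axis) and column (y axis) on the array. The dashed line marks row 128, and 103 of the 138 blue points lie to its left.

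More genes of bile acid synthesis and transport were higher than lower at 2 weeks. Of 31 measured genes 17 were above 0 in both pairs and 2 below, against 35.5% and 29.6% of all features. Past 2-fold upward in both were 5, against 1.65% of all features, and the list medians were 0.75 (NC pair) and 0.29 (miR-29a pair). Cyp8b1, the sterol 12-alpha-hydroxylase that sets how much cholic acid is made, had levels of −3.13 and −0.53 at 1 week (NC, then miR-29a, an order kept below) and 1.91 and 1.92 at 2 weeks. Both 2-week livers were thus above both 1-week livers, by 5.04 in the NC pair and 2.46 in the miR-29a pair. Slco1a1, a transporter of organic anions and bile acids, was at −2.97 and 0.47 and then at 2.03 and 2.51. Either of these 2 genes was below background on the 1-week NC array, and the spot of Slco1a1 lay in row 29. Cyp27a1, the mitochondrial sterol 27-hydroxylase, was at 1.66 and 1.99 at 1 week and 3.58 and 3.22 at 2 weeks, and the groups did not overlap. Nr0b2, which encodes the repressor SHP of bile acid synthesis, was higher by 2.57 and 1.21, and Klb, the co-receptor for FGF15, by 1.42 and 1.01. Cyp7a1, the rate-limiting enzyme of the classic pathway, was at 2.83 and 0.96 and then at 3.65 and 1.97. Its weeks overlapped, although each pair was higher by 0.82 and 1.01. Slc10a1, the main bile acid uptake carrier of hepatocytes, differed the other way, by −0.51 and −0.86, with another probe of the opposite sign. The probe of Cyp8b1 lies on mm9 chromosome 9 at 121824595 to 121824654.

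Among lipoprotein genes 3 of 25 were 2-fold higher in both pairs, against 1.65% of all features. Below 0 in both were 11 (44%) and above 7 (28%), against 29.6% and 35.5% of all features. Apom, an apolipoprotein that carries sphingosine 1-phosphate in HDL, had the largest smaller-of-the-pair difference among higher genes well above background on all 4 arrays. It was at 4.79 and 3.97 at 1 week and 6.93 and 6.97 at 2 weeks, a 5.95-fold mean difference (adjusted p = 0.256 in limma on the 4 arrays and 0.0372 with all 8). Lipc, hepatic lipase, went from −0.01 and 0.19 to 1.61 and 1.29, and Angptl8, an inhibitor of lipoprotein lipase that follows feeding, from 5.58 and 5.99 to 6.93 and 7.32. The main apolipoproteins differed little: the differences of Apoa1 were 0.09 and 0.02, and those of Apob −0.15 and −0.52.

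Enzymes of the pericentral zone, where TAA is activated, were mostly higher at 2 weeks. In bulk tissue fewer cells of a type and less RNA per cell cannot be told apart. Of 36 genes of pericentral hepatocytes 26 were above 0 in both pairs and 0 below in both, against 35.5% and 29.6% of all features, with medians of 0.85 and 0.46. In the periportal list 13 of 32 were above and 4 below, with medians of 0.30 and −0.02. Oat, ornithine aminotransferase, was at 4.15 and 2.57 at 1 week and 5.74 and 4.31 at 2 weeks, and the higher 1-week liver came close to the lower 2-week liver. Slc1a2, a glutamate transporter of the same cells, was higher by 1.07 and 1.18, with its other probes divided in sign. Glul, glutamine synthetase of the last row of cells around the central vein, was at 5.06 and 4.94 and then at 6.01 and 5.66. Axin2, a feedback gene of the Wnt signal that keeps this zone, was higher by 1.16 and 0.60, with a signal below background on 1 of the 4 arrays. Cyp2e1, one of the enzymes known to activate TAA, had levels of 9.19 and 9.67 and then of 9.80 and 9.70 and differed by 0.60 and 0.03.

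Cytochromes P450 of families 1 to 4 had medians of 1.14 and 0.09, so the 2 pairs differed. Of 50 genes 30 (60%) were above 0 in both pairs and 1 (2%) below, against 35.5% and 29.6% of all features. Past 2-fold upward in both were 2, against 1.65% of all features. On the 1-week NC array alone 14 were low (28%, against 1.04% of all features). Cyp2c38 was at 4.10 and 4.54 at 1 week and at 6.41 and 6.30 at 2 weeks, a 4.11-fold mean difference (limma adjusted p = 0.265 on the 4 arrays and 0.04 with all 8). Cyp2c39 was higher by 1.75 and 1.06 and Cyp2d22 by 1.92 and 0.97. Closely related members of these families can share signal on a probe, so a value may hold more than 1 gene. Of 36 conjugating enzymes 25 (69.4%) were above 0 in both pairs and 3 (8.33%) below, against 35.5% and 29.6% of all features. Ugt3a1, a glycosyltransferase, went from 3.38 and 2.46 to 4.49 and 4.25, and Gstm4, a glutathione transferase, from 3.40 and 3.57 to 4.95 and 4.58. Gclm, the modifier subunit of glutathione synthesis, was at 1.44 and 1.47 and then at 2.58 and 2.37, and of 27 NRF2 targets 13 were above 0 in both pairs and 1 below. Sult1e1, the estrogen sulfotransferase, was lower instead, at 3.07 and −1.20 and then at −2.08 and −2.45.

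Fatty acid oxidation genes showed the same kind of difference, larger in the NC pair. Their list shares Cyp4a10, Cyp4a14 and Cyp4a31 with the P450 list. The pericentral and bile acid lists likewise share Cyp27a1 and Cyp7a1. Of 49 targets of PPAR-alpha, the nuclear receptor of fasting and fat use, 26 were above 0 in both pairs and 6 below. Those shares were 53.1% and 12.2%, against 35.5% and 29.6% of all features. The medians were 0.83 and 0.18, and 4 passed 2-fold upward in both, against 1.65% of all features. Pdk4, the kinase that shuts pyruvate out of the citric acid cycle, was at −1.14 and −0.41 at 1 week and 2.31 and 1.16 at 2 weeks. Acot1, a cytosolic acyl-CoA thioesterase, was at 0.48 and 2.94 and then at 4.67 and 4.28. Retsat, a retinol saturase, went from 3.17 and 4.87 to 6.19 and 6.08. The 1-week NC liver was the lowest for each of these 3, and the 2-week livers lay above both 1-week livers. Elovl3, an elongase of very long fatty acids that is male-predominant and rhythmic in liver, had the largest upward difference of a listed gene in the NC pair, from −2.22 to 4.37, while in the miR-29a pair it went from 1.89 to 3.50. Ppp1r3c, which targets a phosphatase to glycogen, was at 0.77 and 1.79 and then at 4.70 and 3.72. Fat synthesis genes were divided (12 of 30 above 0 in both pairs and 10 below): the differences of Thrsp were −0.87 and −0.95 and those of Lpin1 −1.36 and −0.70. Cholesterol synthesis genes were also divided (6 of 28 above and 8 below).

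**Figure D3:**
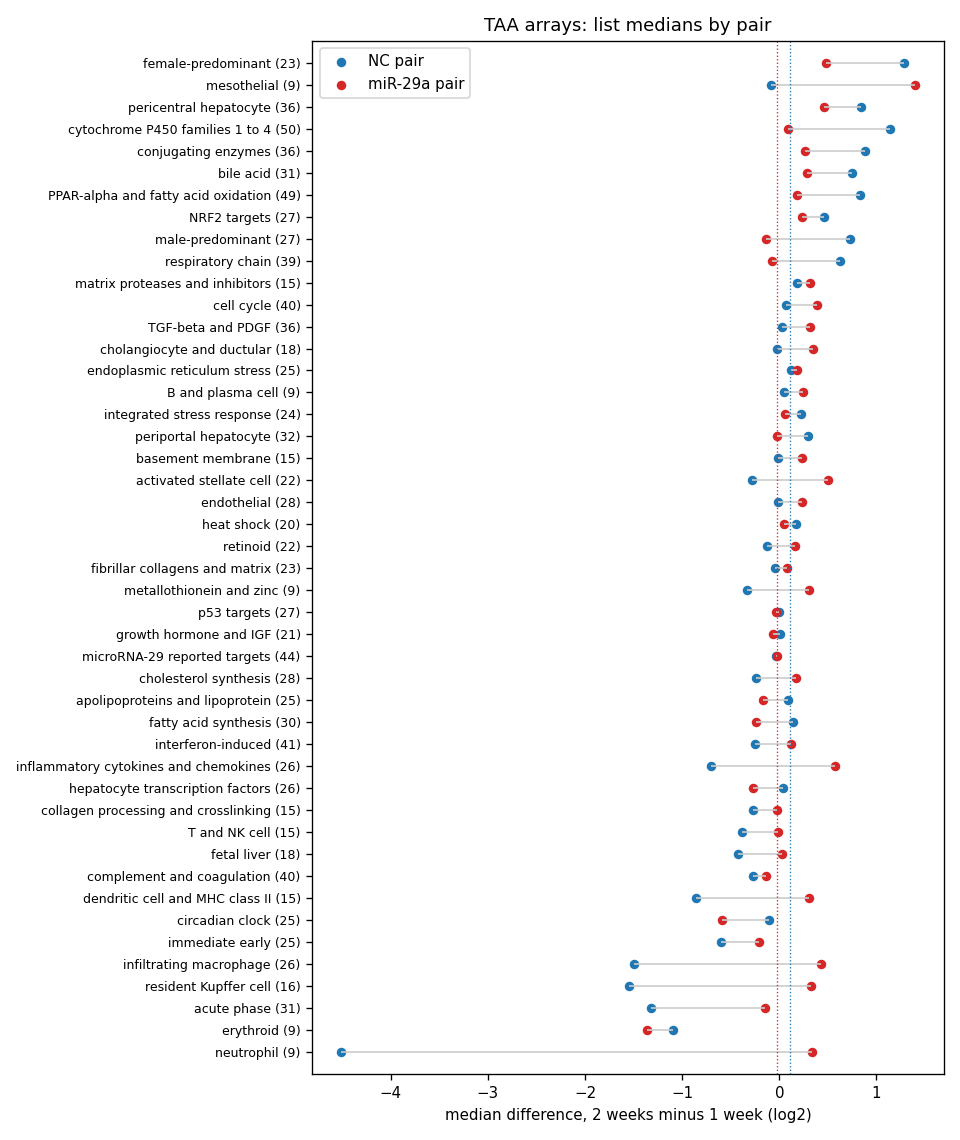
Points give the median log2 difference of each gene list in the NC pair (blue) and the miR-29a pair (red), with the number of measured genes in brackets and the lists ordered by the mean of both medians. Dotted lines are the medians of all genes, and the neutrophil list differs between pairs, while the erythroid list lies at −1.10 and −1.36.

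Within the clock list Arntl and Clock were higher at 2 weeks, while the Per genes, Ciart, Dbp, Tef and Usp2 were lower. The clock is a loop in which ARNTL (BMAL1) and CLOCK switch on their own repressors, the Per genes and Ciart, together with output factors such as Dbp and Tef, so that activator and repressor messages peak at opposite times of day. Of 25 genes of the clock list 5 were above 0 in both pairs and 14 below, with medians of −0.10 and −0.59, where 35.5% and 29.6% of all features lay above and below. Arntl was at −2.52 and −3.14 at 1 week and at 1.15 and −0.26 at 2 weeks, higher by 3.67 and 2.88, and it was below background on the 1-week miR-29a array. Clock was at −0.01 and 0.17 and then at 1.23 and 0.71. Usp2, a rhythmic deubiquitinase, was at 3.40 and 4.39 and then at −0.07 and 2.50, with differences of −3.47 and −1.89 (limma adjusted p = 0.29 on the 4 arrays). Per1 was at 4.19 and 4.08 at 1 week and at 0.98 and 3.31 at 2 weeks. Differences were −1.94 and −0.59 for Per2, −3.01 and −1.27 for Per3, −3.43 and −0.91 for Ciart and −1.21 and −0.90 for Tef. Dbp was at 6.12 and 6.85 and then at 4.20 and 5.85. Per3 and Ciart were below background on the 2-week NC array. The 2-week NC liver was the lowest of the 4 for each of these 7 genes, and both 2-week livers were below both 1-week livers. Not all of the loop followed: Nr1d1, the repressor of Arntl, was higher by 1.46 and 0.71, and Nfil3, a repressor among the output factors, by 1.51 and 0.45. Avpr1a, a vasopressin receptor on the list, was higher by 1.52 and 1.59. Since the labels name no hour of collection, week and time of day cannot be told apart.

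The promoter of Ciart is printed because it holds the E-box CACGTG, the site that ARNTL and CLOCK are known to bind, more than once, and capitals mark it (RefSeq, GRCm38.p6, chr3:95882229-95882478, minus strand, the 250 bases before the start).
Ciart: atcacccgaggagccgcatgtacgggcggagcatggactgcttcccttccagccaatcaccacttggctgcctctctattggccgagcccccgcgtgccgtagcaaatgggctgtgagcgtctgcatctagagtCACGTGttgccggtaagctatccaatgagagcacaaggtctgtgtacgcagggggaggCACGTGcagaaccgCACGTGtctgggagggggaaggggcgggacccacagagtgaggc
The motif starts 116, 58 and 44 bases before the start. Both strands were searched, and CACGTG reads the same on each. Of 20 clock genes with a promoter in the table, 4 (20%) held it in that window, namely Ciart, Per1, Tef and Lonrf3, against 6.86% of the 27025 genes in the table. Per1 and Tef were lower in both pairs like Ciart, and Lonrf3 was at 0.72 and −0.46.

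Asns, the gene of asparagine synthetase and a marker of the amino acid branch of the integrated stress response, was lower at 2 weeks. In that response the factor ATF4 switches on genes of amino acid supply and stress. Asns had levels of 3.57 and 2.80 at 1 week and 0.22 and −0.49 at 2 weeks, with differences of −3.36 and −3.29 (limma adjusted p = 0.168 on the 4 arrays and 0.0605 with all 8). Chac1, which breaks down glutathione, was at 2.14 and 2.35 and then at 0.90 and −0.67. Cebpb, a stress and acute-phase factor, was at 5.70 and 5.77 and then at 4.54 and 4.56. The weeks of these 3 genes did not overlap. The rest of the list did not follow them: of 24 genes 9 were above 0 in both pairs and 6 below, and the medians were 0.23 and 0.06. Trib3 was higher by 1.36 and 0.78, and Atf4 itself differed by 0.39 and −0.14. The fitted difference of Atf4 was 0.13 with its brightest probe and 0.60 with the mean over its probes. Vldlr was higher by 2.21 and 2.28, but it was below background on 1 of the 4 arrays, its spot lay in row 100 and its other probe was dim.

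The promoters of Asns and Chac1 are shown because both hold TGATGNAA, the core of the composite site bound by ATF4 with a C/EBP partner, marked in capitals on either strand (RefSeq, GRCm38.p6, the 250 bases before the start; Asns at chr6:7693210-7693459 on the minus strand and Chac1 at chr2:119350992-119351241 on the plus strand).
Asns: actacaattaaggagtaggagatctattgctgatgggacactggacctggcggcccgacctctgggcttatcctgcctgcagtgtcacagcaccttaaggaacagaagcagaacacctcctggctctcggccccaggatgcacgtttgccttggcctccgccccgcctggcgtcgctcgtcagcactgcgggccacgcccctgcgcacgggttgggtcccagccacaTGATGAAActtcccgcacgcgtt
Chac1: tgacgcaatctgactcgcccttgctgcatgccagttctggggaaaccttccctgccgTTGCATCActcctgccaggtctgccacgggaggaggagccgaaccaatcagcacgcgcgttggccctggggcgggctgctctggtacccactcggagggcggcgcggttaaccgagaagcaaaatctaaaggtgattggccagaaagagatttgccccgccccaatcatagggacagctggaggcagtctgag
The motif starts 23 bases before the start in Asns and 193 bases before it in Chac1. The motif was found in 7 of the 22 list genes that have a promoter there (31.8%), against 3.91% of all 27025 genes. These 7 did not differ in 1 direction. Besides Asns and Chac1, Atf3 had differences of −0.45 and −0.23, while Vldlr and Fgf21 were higher in both pairs and Herpud1 differed by 0.39 and −0.11. Nupr1 was at −1.12 in the NC pair and close to 0 in the miR-29a pair. Fgf21 was below background on both 1-week arrays.

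Cish and Socs3, feedback genes of cytokine and growth hormone signals, were lower at 2 weeks. Cish, an inhibitor that STAT5 switches on after growth hormone or cytokines, was at 4.24 and 4.10 at 1 week and at 1.64 and 0.43 at 2 weeks, with differences of −2.60 and −3.67 (limma adjusted p = 0.235 on the 4 arrays). Socs3, the feedback inhibitor of interleukin-6 signalling, was at 3.86 and 2.11 and then at 1.49 and 0.85. Bcl6, a repressor known to act against STAT5, was higher, at 3.16 and 2.80 and then at 4.37 and 5.10. The weeks of these 3 genes did not overlap. Onecut1, a hepatocyte transcription factor, was at 5.87 and 6.88 and then at 4.89 and 2.87, and its difference was larger in the miR-29a pair. Igfbp2, an IGF carrier, was higher by 2.49 and 0.85. In the whole growth hormone and IGF list 8 of 21 genes were above 0 in both pairs and 8 below.

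**Figure D4:**
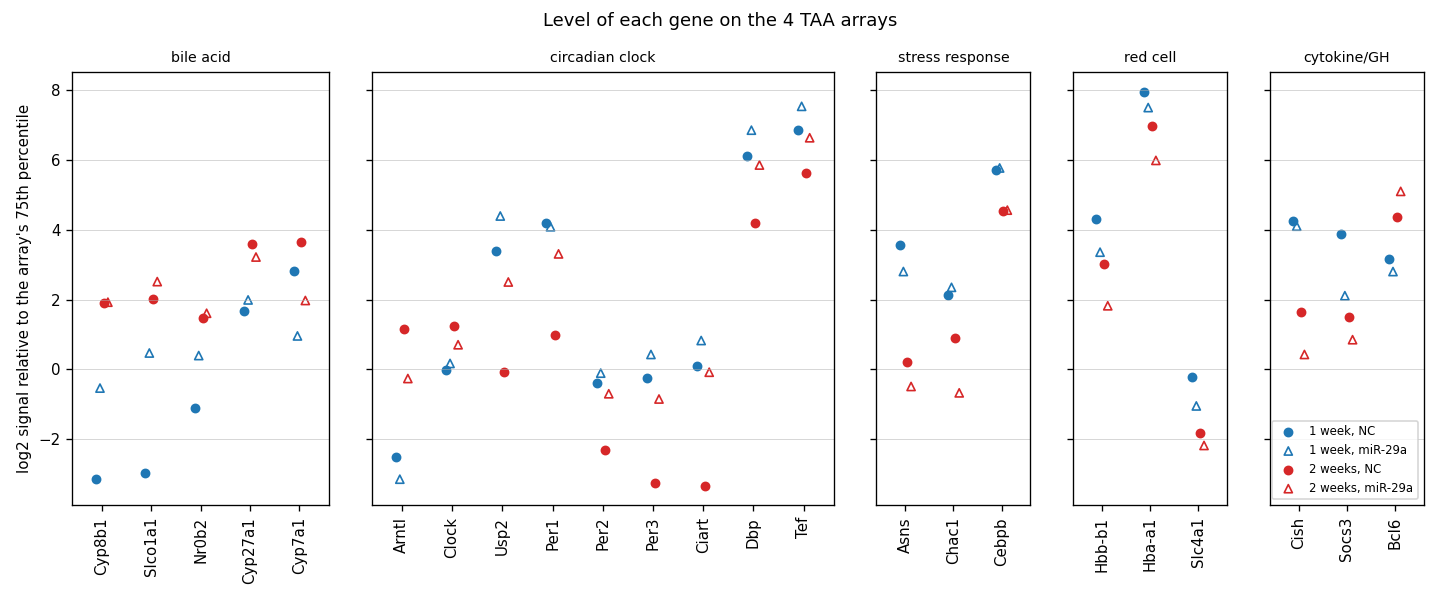
Each symbol is the level of a gene on 1 array (log2 relative to the array's 75th percentile), with blue for 1 week, red for 2 weeks, filled circles for NC and open triangles for miR-29a. Red symbols lie above blue ones for Cyp8b1, Arntl and Bcl6 and below them for Asns, Cish and Usp2, while the weeks overlap for Cyp7a1 and Hbb-b1 lies lowest in the 2-week miR-29a liver.

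Red cell genes were mostly lower at 2 weeks. Of 9 erythroid genes 6 were below 0 in both pairs and 1 above, against 29.6% and 35.5% of all features. Past 2-fold downward in both were 5, against 1.3% of all features, and the medians were −1.10 and −1.36. Hbb-b1, a beta globin, was at 4.31 and 3.36 at 1 week and 3.02 and 1.82 at 2 weeks. Hba-a1, an alpha globin, was at 7.94 and 7.49 and then at 6.95 and 5.98, and Slc4a1, the anion exchanger of red cells, at −0.22 and −1.04 and then at −1.81 and −2.18. The weeks did not overlap for these genes, and the miR-29a liver of each week was lower than its NC partner. Globin genes are near copies of each other, so Hbb-b1 and Hbb-bt (−1.10 and −1.48) are not independent. Epb42, a membrane skeleton protein of red cells also past 2-fold, had its spot in row 8, was below background at 2 weeks and had another probe below background throughout. Alas2 differed by 0.46 and −0.48, and Tfrc, the transferrin receptor of dividing cells, was higher by 0.75 and 1.65 with another probe of the opposite sign. The log2 sum over the list was 8.85 and 8.41 at 1 week and 7.95 and 7.12 at 2 weeks. Per the labels blood was drawn from the vena cava before the livers were taken, and how much blood remained in each was not tested.

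Scar genes differed little and not in 1 direction. Of 23 fibrillar collagen and matrix genes 7 were above 0 in both pairs and 7 below, 0 were past 2-fold, and the medians were −0.05 and 0.08. Col1a1, the main chain of scar collagen, was at 1.46 and 1.71 at 1 week and 0.95 and 1.13 at 2 weeks. Col1a2 differed by −0.30 in either pair and Col3a1 by −0.92 and −0.89, from 3.62 and 3.73 to 2.69 and 2.84. The weeks of Col3a1 did not overlap (limma adjusted p = 0.301 on the 4 arrays). Acta2, the smooth muscle actin of activated stellate cells, was at −0.21 on both 1-week arrays and at −1.79 and −1.24 at 2 weeks. Of 22 genes of activated stellate cells 10 were above 0 in both pairs and 3 below, so most of the list was not like Acta2. Timp1, an inhibitor of matrix proteases, was high on the 1-week NC array (0.03) and between −2.45 and −1.96 on the other 3. Higher at 2 weeks were Loxl1, which cross-links elastin, at −1.83 and −1.66 and then at −0.73 and −0.45, and Mmp2, gelatinase A, by 1.73 and 1.95 (adjusted p = 0.0448 in the 8-array fit of limma). Mmp2 was below background on 1 of the 4 arrays, so the size of its difference depends on a dim signal. Spon2, a secreted matrix protein, was at 0.62 and 0.63 and then at 2.50 and 2.13, and Ogn, a small leucine-rich proteoglycan, at −2.28 and −1.92 and then at −0.73 and −0.19. Of 44 reported miR-29 targets 14 were above 0 in both pairs and 17 below, with medians of −0.04 and −0.03. The probe of Col1a1 lies on mm9 chromosome 11 at 94813115 to 94813174.

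Among genes of growth and fetal liver, differences ran both ways. Plk3, a stress-responsive kinase, was at 4.66 and 4.79 at 1 week and 3.02 and 2.44 at 2 weeks. Ccne1, cyclin E1, was at 1.47 and 1.33 and then at 0.07 and 0.33. H19, an imprinted RNA of fetal liver, was at −0.30 and −1.15 and then at −2.33 and −2.29, and Ly6d, a surface protein, went from 6.11 and 2.93 to 3.40 and 1.87. Weeks overlapped for Ly6d and not for the others. Of 25 immediate early genes 12 (48%) were below 0 in both pairs and 3 (12%) above, against 29.6% and 35.5% of all features. Their medians were −0.60 and −0.21. Btg2 differed by −1.52 and −0.79 and Myc by −0.90 and −0.84, whereas Egr1 was higher by 0.87 and 1.39. Of 40 cell cycle genes 23 (57.5%) were above 0 in both pairs and 5 (12.5%) below, with medians of 0.07 and 0.39. Pcna, the clamp of DNA replication, was higher by 0.53 and 0.62. Mki67, the proliferation marker, differed by −0.61 and 0.37, Ccnd1 by 0.05 and 0.15, and Cdkn1a by −0.28 and 0.52. Another probe of Mki67 had the opposite mean sign.

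Further genes with large differences were mostly well above background on all 4 arrays. Gpcpd1, a glycerophosphodiesterase, was at 3.59 and 4.05 at 1 week and 1.69 and 1.84 at 2 weeks (limma adjusted p = 0.233 on the 4 arrays and 0.0255 with all 8). Arid5b, a chromatin regulator, had differences of −1.54 and −2.48, Phlda1 of −1.67 and −1.50 and Foxq1, a forkhead factor, of −1.49 and −1.76. Derl3, of endoplasmic reticulum degradation, was at 1.03 and 3.19 and then at −1.17 and 1.40, so its weeks overlapped. Chil3, a chitinase-like marker of alternative macrophage activation, was at 1.94 and −0.23 and then at −1.02 and −2.75, with differences of −2.96 and −2.52. It was the one macrophage gene past 2-fold downward in both pairs, with its spot in row 9, and Gpnmb, of lipid-laden macrophages, was higher by 1.91 and 2.14 from below background. On the higher side Tubb2a, a beta tubulin, was at 4.30 and 4.35 and then at 6.69 and 6.41. Ndrg1, a stress and differentiation gene, was higher by 1.67 and 1.80 and Htatip2, an oxidoreductase-like protein, by 1.92 and 1.78 (adjusted p = 0.024 for either in the 8-array fit of limma). Cxcl10, an interferon-induced chemokine, was higher by 1.14 and 1.08. Pon2, a lactonase, was higher by 1.58 and 1.72, with another probe of the opposite sign.

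The 1-week NC liver stood apart by an acute-phase and myeloid pattern. Lcn2, lipocalin 2, a protein of neutrophils and stressed hepatocytes, was at 10.05 there and at 1.44 (1-week miR-29a), 0.69 (2-week NC) and 1.23 (2-week miR-29a). Orm3, an orosomucoid, was at 8.20 against 0.75 to 1.46 on the other 3, Mt2, a metallothionein, at 10.13 against 3.06 to 3.49, and Saa1, serum amyloid A, at 10.99 against 5.03 to 5.70. S100a9, a calprotectin subunit of neutrophils, was at 7.90 against 1.42 to 1.93, and Camp, of neutrophil granules, at 3.27 against −1.57 to −1.23. Cd14, Mt1, Noxa1 and Saa2 completed the 10 farthest genes. Of 31 acute-phase genes 13 were high on that array alone (41.9%, against 2.47% of all features), of 16 Kupffer cell genes 11, of 26 macrophage genes 13 and of 9 neutrophil genes 4. The log2 sum of the Kupffer list was 8.80 there and 7.36 to 7.40 on the other 3, and that of the neutrophil list 10.56 against 6.78 to 7.40. Marco and Clec4f, which mark resident Kupffer cells, were at 6.49 and 5.22 there and at 3.02 to 3.25 and 3.33 to 3.47 elsewhere. Lower on that array alone were Cyp4a14, an omega-hydroxylase that PPAR-alpha drives (3.40 against 7.23 to 8.12), its relatives Cyp4a31 and Cyp4a10, and Omd, osteomodulin, at −4.42 and below background against −0.39 to 0.01. Cyp1a1 and Krt23 followed, with Gm11346, Meig1, D630024D03Rik and Dusp4 among the 10.

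**Figure D5:**
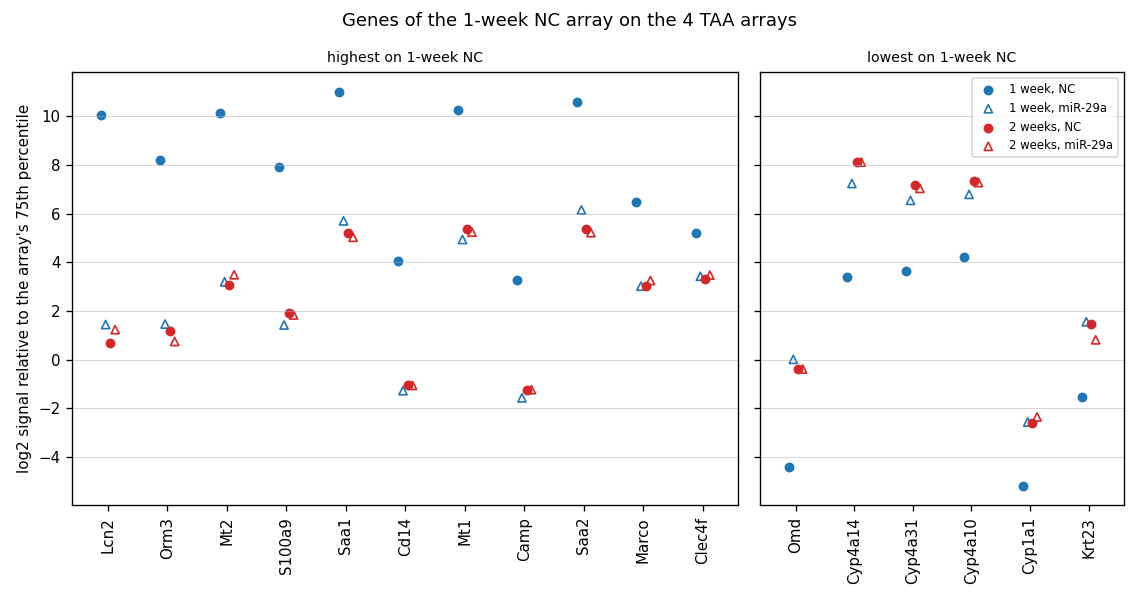
Each symbol is the level of a gene on 1 array (log2 relative to the array's 75th percentile), coloured by week and shaped by nucleotide. The filled blue circle, the 1-week NC liver, lies apart for each gene shown, and for Lcn2 it is at 10.05 while the other 3 lie between 0.69 and 1.44.

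For these genes the NC pair alone would give a large difference between the weeks, while the miR-29a pair gave −0.21 for Lcn2, 0.29 for Mt2 and 0.41 for S100a9. The acute-phase list had 20 of 31 genes (64.5%) below 0 in both pairs and 1 above, with medians of −1.32 and −0.15. Complement and coagulation genes had 21 of 40 (52.5%) below and 7 (17.5%) above. Of all features 29.6% were below and 35.5% above. The Kupffer medians were −1.55 and 0.32, the macrophage medians −1.50 and 0.43 and the neutrophil medians −4.51 and 0.34. The difference of these medians from those of all genes in the NC pair therefore rests on 1 liver. It also enters the metabolic lists above, whose medians were larger in the NC pair: respiratory chain genes were at 0.63 and −0.08 and P450 genes at 1.14 and 0.09. The pericentral, bile acid and red cell lists had medians of 0.46, 0.29 and −1.36 in the miR-29a pair, which does not use that array. In that pair the Kupffer (0.32), macrophage (0.43) and inflammatory cytokine (0.57) lists had medians of like size to the first 2. The size of those 2 medians thus does not set the pericentral and bile acid lists apart. The part of the 1-week NC array in the differences of the NC pair was not tested.

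The difference between the weeks was then tested against that after CCl4, as an agent by week interaction in limma over the 8 arrays with the nucleotide as a covariate. At an adjusted p under 0.05 the TAA difference was above the CCl4 difference for 997 features (5.33%) and below it for 869 (4.65%), and 5677 had an unadjusted p under 0.05. Without either of the 2-week TAA arrays 0 were called. Of the 552 features 2-fold in both TAA pairs, 307 had the opposite sign in both CCl4 pairs and 99 the same sign in both. Asns was 1.40 and 1.75 higher at 2 weeks after CCl4, and the TAA difference minus the CCl4 difference was −4.90 (adjusted p = 0.0332 in limma). Apom was at −0.86 and −1.18 after CCl4, with a TAA difference 3.59 above it (adjusted p = 0.0261), and Cyp27a1 at −0.33 and −0.67, with a TAA difference 2.07 above it (adjusted p = 0.0275). For some other genes the difference between agents did not pass the threshold. Arntl was higher after CCl4 too, by 1.18 and 1.69, and Usp2 differed there by −2.03 and −1.24 (interaction adjusted p = 0.168 and 0.32). Cish differed by −1.45 and −2.38 after CCl4 (adjusted p = 0.268), Oat was higher by 1.39 and 0.96 (adjusted p = 0.769), and Acta2 differed by −0.87 and −2.21 (adjusted p = 0.786). Hbb-b1 was at 1.20 and −0.35 after CCl4 (adjusted p = 0.265). These p-values do not show that the agents acted alike.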

How the data were processed

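Liver RNA labelled with Cy3 was hybridised to 1-colour Agilent arrays, 1 array for each combination of agent, week and nucleotide. The intensity used was the processed signal that Agilent Feature Extraction 10.10.1.1 had background-corrected, per the file headers. The log2 values of the authors' deposited table equalled the log2 processed signal minus 1 constant per array (within 0.01 for 100% of probes), and the medians of its TAA columns were −3.45, −3.46, −3.72 and −3.56 (1-week NC and miR-29a, then 2-week NC and miR-29a). Control spots and 24 probes with outlier flags were left out. Each array's 75th percentile was subtracted from its log2 signal, probes were kept where 2 or more of the 4 TAA arrays gave a signal well above background, and the brightest probe stood for each gene name. Of 55681 probes, 27656 were named through an accession, 3401 through a symbol and 321 through an older symbol of the RefSeq table (GRCm38.p6), and 24303 kept the name in the file. Probe coordinates are mm9, as in the files.

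Tests used limma 3.58.1 in R 4.3.3 with Benjamini-Hochberg adjustment over all features, and the fit was checked on simulated data. The named genes were the 15 with the largest smaller matched difference in each direction, the 10 farthest in each direction on the 1-week NC array alone, up to 3 per gene list and a fixed set; some genes that these rules chose are not reported here. Further genes of the lists, and the largest among those well above background on all 4 arrays, were chosen after their values were seen. The comparison, the members and the gene lists were chosen with earlier results of these data known. Alternatives were the background correction, scaling, filter, probe choice, fold threshold, model and each array left out, and 1 (leaving out spots of rows 1 to 128) was chosen after seeing the data.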

Additional observations from a re-analysis of the deposited data

Results flagged for a closer look

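The difference between the weeks after TAA differed from that after CCl4, by the interaction term of limma over the 8 arrays, for 48 of the 148 genes named above, with adjusted p-values between 0.0226 and 0.0499. Of all 18691 features 1866 were called (5.33% above and 4.65% below). Many of the 148 were named for a large TAA difference, which enters this test. The share among them thus follows in part from how they were chosen. The value in brackets is the TAA difference minus the CCl4 difference in log2 units. Among genes well above background on all 4 TAA arrays it was above 0 for Apom (3.59), Ogn (2.80), Pon2 (2.74), Cyp2d22 (2.46), Lipc (2.28), Htatip2 (2.14), Cyp27a1 (2.07), Cxcl10 (1.93), Cyp2c38 (1.93), Gstm4 (1.93), Nr1d1 (1.85), Ndrg1 (1.74), Klb (1.59), Spon2 (1.51), Gclm (1.51) and Pcna (0.86). It was below 0 for Slc10a1 (−1.29), Gpcpd1 (−1.53), Arid5b (−1.87), Phlda1 (−2.13), Foxq1 (−2.53), Derl3 (−4.55) and Asns (−4.90). The filter on dim probes used the TAA arrays alone. Catsper1 (adjusted p = 0.0226 in the limma interaction) lay at −5.88 to −5.66 on the CCl4 arrays, and Epb42 at −5.56 to −5.18. The lowest signals well above background there were −3.71 to −3.42, so for such genes the value mostly repeats the TAA difference. Genes that were below background on 1 or 2 of the TAA arrays depend more on the dim signal and could pass the filter through 1 TAA week. Of these, Itm2a (4.67), Tinag (4.11), Olfr507 (3.95), Prm3 (3.63), Crat (3.40), Gpnmb (3.34), Asb11 (3.15), Mmp2 (3.11), Prune1 (3.03), Spint5 (2.96) and Rfx4 (2.36) had values above 0, and Catsper1 (−3.61), Ccdc40 (−3.68), B3gnt7 (−3.94), Trim61 (−3.96), Mastl (−3.96), Smpx (−4.24), Speer4b (−4.30), Epb42 (−4.40), Dppa3 (−4.50), Gabra4 (−4.66), P3h2 (−4.69), Olfr71 (−4.74), Cysltr2 (−5.19) and Gm10209 (−5.38) had values below 0. For 35 of the 48 genes the mean differences of the agents had opposite signs, as they had for 1790 of the 1866 features called among all. Leaving out either 2-week TAA array left 0 features called in this test.

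For 6 gene lists the median was above 0 in both TAA pairs and below 0 in both CCl4 pairs. Read against the medians of all genes, not all of them differed this way. In the TAA NC pair cell cycle (0.07) and TGF-beta and PDGF (0.03) lay below the median of all genes (0.11). In the CCl4 NC pair that median was −0.022, with cytochromes P450 above it (−0.009) and NRF2 targets close to it (−0.023). The TAA median minus the CCl4 median, averaged over the nucleotides, was 0.75 for matrix proteases and inhibitors, 0.69 for cytochromes P450, 0.42 for NRF2 targets, 0.38 for cell cycle, 0.47 for TGF-beta and PDGF and 0.61 for bile acid. These differences between the agents were not tested.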

How the results depend on the processing

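With 4 arrays, 1 per combination, the size of every count depended on the settings. Scaling on the array median gave 960 higher and 379 lower in limma, 524 at least 2-fold higher in both pairs and 3190 called in the interaction. Those limma calls included genes whose pairs disagreed, such as Camp. Normexp gave 143 higher and 59 lower in both pairs, 303 and 71 on the 1-week NC array alone and 3423 in the interaction, and 167 of the 552 features 2-fold in both pairs (30.3%) remained. Without the filter on dim probes 592 were 2-fold lower in both pairs, 1269 were high on the 1-week NC array alone and 0 were called in the interaction. Requiring a signal well above background on all 4 arrays gave 186 and 105, a 1.5-fold threshold gave 1146 and 847 in both pairs and 556 low on the 1-week NC array alone, and leaving out spots of rows 1 to 128 gave 201 and 107. All 8 arrays in the fit gave 59 and 54, of which 33 and 12 were well above background on all 4 TAA arrays. Leaving out 1 TAA array from that fit gave 10 to 421 higher, 5 to 445 lower and 0 to 2287 in the interaction. The causes of these shifts were not tested, apart from the fewer features or samples that an alternative holds.

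The sign of the fitted difference turned under normexp for Cdkn1a (−0.032) and Alas2 (0.13), under the array median for Alas2 (0.18), Alb (0.0021) and Mki67 (0.070), and under quantile scaling for Alb (0.23). The mean over probes turned it for Apob (0.083), Mki67 (0.053) and Slc10a1 (0.41), and leaving out rows 1 to 128 for Slc10a1 (1.52). Leaving out 1 TAA array gave fitted differences on both sides of 0 for some genes. The ranges were −4.52 to 0.35 for Camp, −4.91 to 0.037 for Cd14, −3.41 to 0.19 for Marco, −5.25 to 0.67 for Mt1, −7.38 to 0.61 for Mt2, −5.83 to 0.28 for S100a9, −0.57 to 2.84 for Krt23 and −0.44 to 4.10 for Omd, and in these the turned value was that without the 1-week NC array. They were −0.36 to 0.35 for Alas2, −0.069 to 0.32 for Atf4, −0.28 to 0.48 for Ccnd1, −0.26 to 0.50 for Cdkn1a, −0.50 to 2.33 for Cyp7a1, −0.0012 to 2.25 for Egr1, −0.15 to 0.43 for Herpud1, −0.55 to 0.81 for Lonrf3 and −0.59 to 0.35 for Mki67. Of the 148 genes named 128 kept their sign under every alternative run, as did 17 of 46 list medians. The matching by nucleotide is part of the fit, and the fit without the nucleotide term gave the same counts of calls in limma. No paired analysis by replicate number was possible because each combination of agent, week and nucleotide had 1 array, and no slide or scan term could be fitted with 1 slide and 1 scan.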
